A study of Mus musculus with 8 samples.

Results

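Interferon-stimulated antiviral genes were examined in regulatory (Treg) and conventional (Tconv) CD4+ T cells of mice with or without forced expression of CD70, the ligand of the costimulatory receptor CD27. The group was set by name as 45 genes, and all 45 were found among the 52636 rows of the table and passed the minimum value, so that all were tested among 12816 genes. Tregs (CD4+ Foxp3+) and Tconvs (CD4+ Foxp3-) had been sorted from the spleen of Foxp3 reporter mice of 6 to 8 weeks, 200000 cells for each library. Controls were CD27+/- mice, and CD70Tg denotes CD11c-Cd70tg;CD27+/- mice, in which the CD11c promoter drives CD70 in dendritic cells, so that all mice carried 1 CD27 allele and the T cells met the ligand on other cells. Each of the 4 groups held 2 libraries. The sources used here do not say whether the 2 libraries of a group came from separate mice, and the p-values then measure the spread between these libraries, which may be technical. Antibody to CD25 had been added to the magnetic depletion for Tconvs and not for Tregs, so that purification differs between the subsets as well as cell type.

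Interferons signal through JAK kinases and STAT factors. Type I and type III interferons assemble a complex with STAT2 and IRF9, which binds the interferon-stimulated response element (ISRE), and interferon gamma, the type II interferon and a Th1 cytokine, leads STAT dimers to the gamma-activated sequence (GAS). The antiviral genes that follow encode proteins that sense foreign RNA or DNA, block translation, degrade RNA, trap virions or attach ISG15 to other proteins, and many of them are kept at a low tonic level in resting T cells.

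The ISRE shows in the sequence before the start of several members. The core GAAANNGAAA was searched on both strands in RefSeq promoter windows of GRCm38.p6, from 250 bases before to 50 bases after the start. Of the 45 members, 35 were in that promoter table, and Mx1, Mx2, Rtp4, Ifi27l2a, Usp18, Zbp1, Oas2, Parp14, Dhx58 and Parp9 were not. The core was found in 15 of the 35 (42.9%), and in 3.99% of 27025 genes of the table. The GAS letters TTCNNNGAA were found in 8 of the 35 (22.9%) and in 9.55% of genes. Below are the bases from 190 to 41 before the start, read on the coding strand, of Ifit1, Ifit3, Ifit3b, Isg15 and Rsad2, chosen after the values were seen as well-known antiviral genes of which Ifit3 and Ifit3b rose in Tconvs and the others did not pass. Capitals mark ISRE cores on either strand. Isg15 has 3 overlapping cores on the coding strand, and the cores of the other 4 are read on the opposite strand. Ifit3 and Ifit3b share a run of 169 identical bases within their windows, shifted by 32 bases. The stretches lie at chr19:34640699-34640848 (+) for Ifit1, chr19:34583339-34583488 (+) for Ifit3, chr19:34607767-34607916 (+) for Ifit3b, chr4:156200859-156201008 (-) for Isg15 and chr12:26456493-26456642 (-) for Rsad2.
Ifit1: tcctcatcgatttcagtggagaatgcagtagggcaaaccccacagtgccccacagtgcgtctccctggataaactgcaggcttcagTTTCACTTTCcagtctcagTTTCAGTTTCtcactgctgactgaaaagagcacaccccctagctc
Ifit3: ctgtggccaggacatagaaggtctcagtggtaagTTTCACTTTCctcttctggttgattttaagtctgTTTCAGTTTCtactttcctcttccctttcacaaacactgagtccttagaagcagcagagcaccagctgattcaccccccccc
Ifit3b: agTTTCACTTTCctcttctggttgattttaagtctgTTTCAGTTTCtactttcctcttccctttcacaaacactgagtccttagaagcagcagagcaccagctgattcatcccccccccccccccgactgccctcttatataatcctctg
Isg15: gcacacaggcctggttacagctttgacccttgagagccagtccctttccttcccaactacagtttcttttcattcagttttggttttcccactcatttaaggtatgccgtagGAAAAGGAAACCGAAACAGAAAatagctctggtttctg
Rsad2: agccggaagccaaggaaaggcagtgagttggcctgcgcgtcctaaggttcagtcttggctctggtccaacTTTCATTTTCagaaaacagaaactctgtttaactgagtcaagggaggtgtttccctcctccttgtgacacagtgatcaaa

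Values are reads per gene scaled by the authors to 20 M per library and rounded up, and the library totals lay between 19963628 and 20164600. Within a library, low values fall on whole multiples of what 1 read is worth, and the size of this step puts 6.94 to 33.28 M reads on genes behind the Tconv libraries and 1.91 to 4.57 M behind the Treg libraries. Over the 45 members, library 2 of CD70Tg Tconvs, the deepest, lay above library 1 for 39, with a median log2 difference of 0.34, and the same held for 73.9% of all genes tested, with a median of 0.17. Foxp3 was 1039 to 1497 in Tconvs and 19769 to 21367 in Tregs. Cd27 was 2980 to 3359 in Tconvs and 5173 to 6123 in Tregs. Cd70 did not exceed 44 in any library. Summed markers of conventional dendritic cells were 66 to 110 in control and 195 to 342 in CD70Tg Tconvs, and 99 to 156 and 372 to 399 in the Tregs. Most of the rise was Itgax in Tconvs (31 and 57 against 101 and 236) and Zbtb46 in Tregs (25 and 27 against 209 and 191). Xcr1 was higher in both subsets (7 and 26 against 49 and 56, 10 and 18 against 63 and 33). Itgax overlapped in Tregs (49 and 84 against 74 and 104), and Flt3 did not rise in Tconvs (13 and 17 against 12 and 7). Erythroid markers were 566 to 1583 in control and 4014 and 2406 in CD70Tg Tregs, and neutrophil markers 5 to 10 and 215 to 233. NK cell markers were 417 to 444 in control and 81 to 88 in CD70Tg Tconvs, and 36 to 64 and 0 to 11 in the Tregs. Nearly all of that sum was Klrb1c (403 and 423 in control Tconvs), while Ncr1 and Klra8 were at 0 to 2 and Klre1 at 0 to 21 in every library. Macrophage and monocyte markers were 1527 to 1550 in control and 1138 to 1466 in CD70Tg Tconvs, and 2799 to 2855 and 2809 to 3023 in the Tregs. Markers of plasmacytoid dendritic cells were 2087 to 2587 in control and 1542 to 1623 in CD70Tg Tconvs, and 2152 to 2515 and 1448 to 1537 in the Tregs, without overlap in either subset. Nearly all of that sum was Pacsin1 (2564 and 2039 against 1530 and 1597 in Tconvs, 2475 and 2120 against 1526 and 1436 in Tregs), and the other 4, Siglech among them, were at 0 to 28 in every library. B cell markers were 255 to 373 and 171 to 290 in the Tconvs, and 405 to 520 and 525 to 526 in the Tregs. Cd8a and Cd8b1 summed to 681 to 720 in control and 1563 to 1590 in CD70Tg Tconvs, and to 317 to 417 and 631 to 660 in the Tregs. Cd8a alone was 17 and 28 against 508 and 608 in Tconvs, and 25 and 71 against 262 and 223 in Tregs. Cd8b1 was 703 and 653 against 1055 and 982 in Tconvs, and 292 and 346 against 398 and 408 in Tregs. The 6 T cell markers summed to between 65832 and 95320. Per the study's methods, antibodies that included those to CD49b, GR1, Ter119, CD11c, CD8β and MHCII had served to deplete other cell types on magnetic columns before live CD3+ CD4+ cells were sorted by the Foxp3 reporter. The part of any remaining other cells in the results below was not tested, and in sorted populations a change in the make-up of the cells and a change within each cell cannot be told apart.

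**Figure D1:**
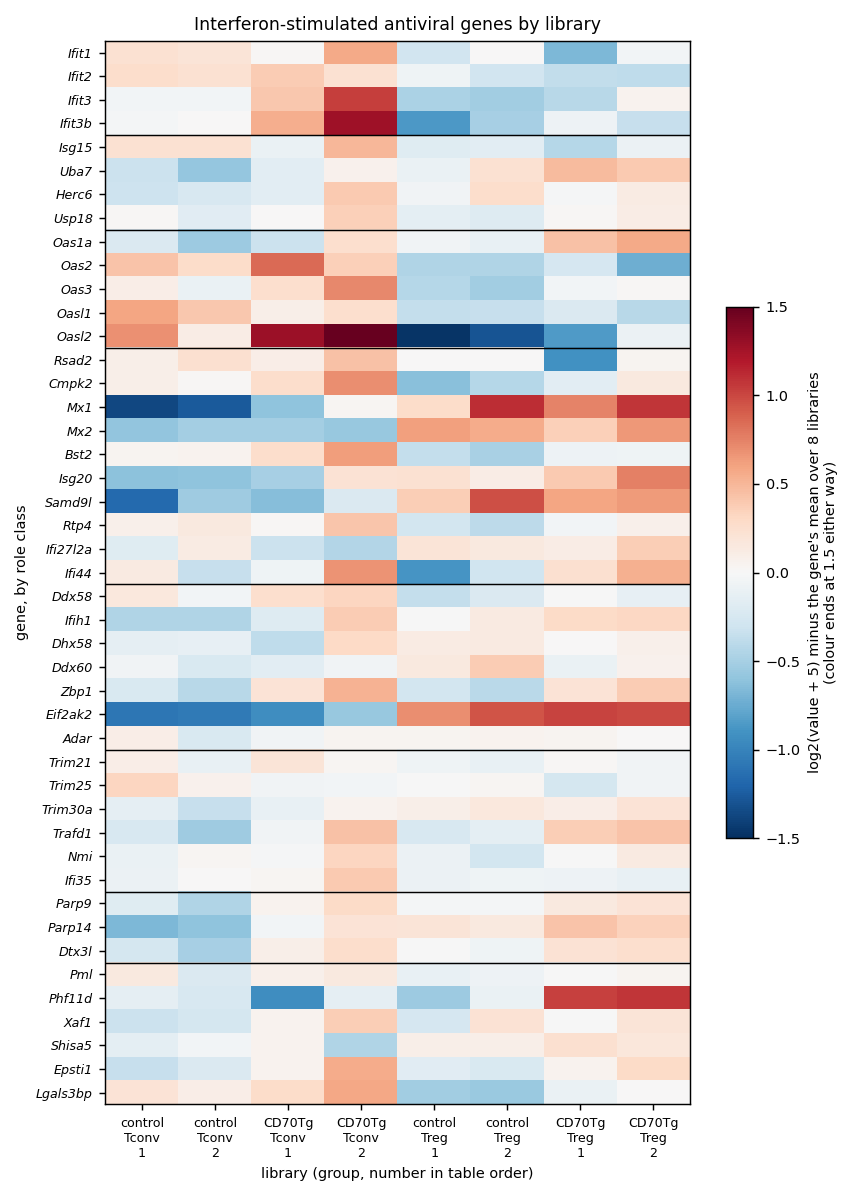
Each cell of the map is log2(value + 5) of one member in one library, minus that gene's mean over the 8 libraries, with members in rows by role class and libraries in columns by group. Mx1, Eif2ak2 and Samd9l are higher in Tregs, Oasl2 is higher in Tconvs, and library 2 of CD70Tg Tconvs is above library 1 for 39 of the 45 members.

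The members stood at very different levels. Per kilobase of exon, the mean value over the 8 libraries was highest for Ifi27l2a (18538 per kilobase), a small hydrophobic protein, and for Shisa5 (15032.7), a membrane protein linked to cell death. Next came Bst2 (1936.2), which tethers budding virions to the cell surface, then Epsti1 (1834.5) and Lgals3bp (1725.3). Isg15, the ubiquitin-like modifier, was at 1279 per kilobase. The lowest were Phf11d (9.8) and Mx2 (19.3), which rest on 5 to 57 and 8 to 69 reads per library.

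In Tregs, few of these genes passed the threshold for a change with the CD70 transgene. By limma, at an adjusted p under 0.05, 5 of 45 members (11.1%) rose in CD70Tg against control Tregs, and 0 fell. Of all genes tested, 3.94% rose and 3.46% fell. The 5 were Oasl2, Zbp1, Trafd1, Oas1a and Lgals3bp, and their rise lay between 0.50 and 0.91 on the log2 scale. None passed an absolute log2 fold change over 1 as well, which 3.6% of all genes did. The median log2 fold change of the 45 was 0.21, and that of all genes -0.05. Both CD70Tg libraries lay above both control libraries for 27 members (60%) and for 22.5% of all genes, and below for 5 members (11.1%) and 31.2% of all genes. The count of 5 rests on single libraries and on the fit. It was 0 without control Treg library 2 or without CD70Tg Treg library 2, 1 without control Treg library 1, 2 without CD70Tg Treg library 1, and 9 and 8 without library 1 and library 2 of CD70Tg Tconvs, which enter the shared spread. It was also 0 with no minimum value and 1 with limma-voom on the numbers of reads, but 10 with median-of-ratios factors and 12 with the 4 Treg libraries fitted alone. Past the fold criterion there were 2 with median-of-ratios factors and 1 with a pseudocount of 20.

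The same question was asked of Tconvs. In CD70Tg against control Tconvs, 10 of 45 members (22.2%) rose and 0 fell by limma, with 6.82% of all genes higher and 1.99% lower. The 10 were Oasl2, Mx1, Ifit3b, Ifit3, Parp14, Zbp1, Epsti1, Trafd1, Dtx3l and Parp9. Oasl2 and Mx1 also passed a log2 fold change of 1, a criterion met by 4.65% of all genes. The median of the 45 was 0.28, and that of all genes 0.01. Without CD70Tg Tconv library 2 the median of the members was 0.13, and without CD70Tg Tconv library 1 it was 0.43. Both CD70Tg libraries were above both controls for 23 members (51.1%) and for 23.7% of all genes, and below for 3 members (6.67%) and 21.4% of all genes. Without CD70Tg Tconv library 1 the count was 21, with 4 past the fold criterion. Without CD70Tg Tconv library 2 it was 3, and without control Tconv library 2 it was 4, with 0 past the fold criterion in both. Only 1 passed the fold criterion without control Tconv library 1, where 8 members rose and 1 fell. With no minimum value the count was 1, and with limma-voom on the numbers of reads it was 17. Whether Tconvs or Tregs had more members past the threshold depended on the libraries and the fit. Without CD70Tg Tconv library 2 there were 3 in Tconvs and 8 in Tregs, without control Tconv library 2 there were 4 and 6, and with the 4 libraries of each subset fitted alone there were 8 and 12.

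Of the members that rose, 3 did so in both subsets (Oasl2, Trafd1 and Zbp1), 60% of those in Tregs and 30% of those in Tconvs. Among all genes tested, 295 rose in both, 58.4% of the 505 in Tregs and 33.8% of the 874 in Tconvs, so that the members' shares lay near those of the whole table. The 2 responses rest on different libraries, but the sources used here do not say whether Tregs and Tconvs came from the same mice. If they did, the 2 responses are not independent. The difference between them, tested in the same model, passed the threshold for 0 members by limma, whereas 1.02% of all genes passed. At an unadjusted p under 0.05 there were 3 (Parp14, Phf11d and Ifi27l2a), and limma-voom on the numbers of reads also gave 0. The lowest adjusted p was that of Parp14 (limma, 0.21), whose log2 difference of Tregs minus Tconvs was -0.50 with a 95% interval from -0.84 to -0.16. It passed, as the only member, without CD70Tg Tconv library 1. The interval of Mx1 reached down to -1.72, and Phf11d differed by 1.71 ± 0.61 (SE), so that sizeable differences between the subsets are left within the intervals.

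**Figure D2:**
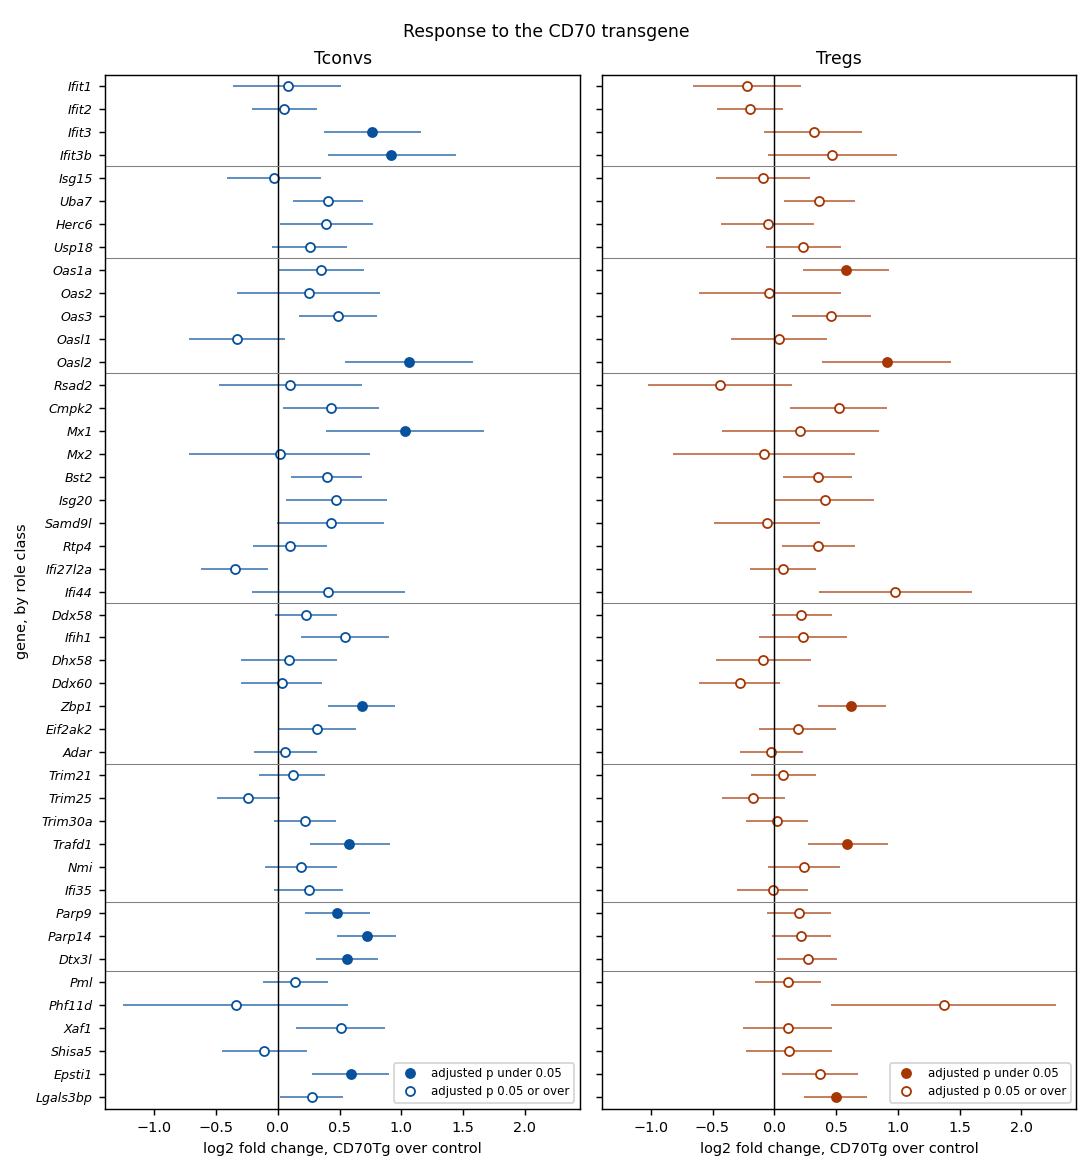
Points are log2 fold changes of CD70Tg over control for each member in Tconvs (left) and Tregs (right), bars are 95% intervals from limma, and filled points have an adjusted p under 0.05. There are 10 filled points in Tconvs and 5 in Tregs, all to the right of 0, and Oasl2, Zbp1 and Trafd1 are filled in both.

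Among oligoadenylate synthetases, which make the second messenger that activates RNase L, 1 of 5 rose in Tconvs and 2 in Tregs. Oasl2, a synthetase-like protein with ubiquitin-like domains, was 797 and 534 in control and 1205 and 1551 in CD70Tg Tconvs. In Tregs it was 175 and 198 in control and 272 and 463 in CD70Tg libraries. Neither pair of groups overlapped, and every Treg library was below every Tconv library. The log2 fold change was 1.06 ± 0.25 (SE, n = 2 libraries a group) in Tconvs (limma, adjusted p = 0.0098) and 0.91 ± 0.25 in Tregs (limma, adjusted p = 0.032). The Treg rise rests on 36 and 45 reads in control against 26 and 85 in CD70Tg libraries, and its adjusted p was 0.011 to 0.32 over the alternatives. It did not pass without either control Treg library or without CD70Tg Treg library 2, nor did the Tconv rise without control library 2 or CD70Tg library 2 (adjusted p up to 0.18 over the alternatives).
Oas1a, a catalytically active synthetase, was 1398 and 1336 in control and 1954 and 2143 in CD70Tg Tregs, a log2 rise of 0.58 ± 0.17 (limma, adjusted p = 0.044), and this did not pass without any one of the 4 Treg libraries. Its Tconv libraries overlapped (1240 and 986 against 1159 and 1716). Oas3, the one that favours long double-stranded RNA, had the highest mean value of the synthetases, though not per kilobase of exon. It was 1597 and 1390 in control and 1772 and 2463 in CD70Tg Tconvs, and 1112 and 1038 against 1453 and 1512 in Tregs. The groups did not overlap in either subset, yet the log2 differences of 0.49 and 0.46 had adjusted p-values of 0.055 and 0.074 in limma. Oas2 (0.25 in Tconvs and -0.04 in Tregs) and Oasl1 (-0.33 and 0.04), which restrains translation of Irf7, did not pass either.

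The IFIT proteins bind viral RNA and hinder its translation. Their genes lie side by side on chromosome 19 (GRCm38, chr19:34550694-34650009 from Ifit2 to Ifit1). In Tconvs 2 of the 4 rose, and in Tregs 0 passed. Ifit3 was 1077 and 1072 in control and 1470 and 2269 in CD70Tg Tconvs, a log2 rise of 0.76 ± 0.19 (limma, adjusted p = 0.015). Ifit3b was 334 and 342 against 499 and 834, a rise of 0.92 ± 0.24 (limma, adjusted p = 0.024). Both were above control in both libraries. Neither passed without control Tconv library 2 or without CD70Tg Tconv library 2, and Ifit3b did not without control Tconv library 1. Since Ifit3 and Ifit3b are near copies, reads could have been split between them, and their separate values are uncertain.
Ifit1, which recognises RNA caps that lack methylation, was 1059 and 1040 in control and 914 and 1342 in CD70Tg Tconvs. In Tregs it was 743 and 911 against 565 and 881. The groups overlapped in both subsets, with log2 differences of 0.08 ± 0.21 and -0.22 ± 0.21. Ifit2 had the highest mean value of this class, though not per kilobase of exon. It was 2045 and 2001 against 2210 and 1989 in Tconvs and 1631 and 1388 against 1317 and 1305 in Tregs. Its log2 differences were 0.05 and -0.20 and did not pass. All 4 IFIT genes were thus measured with intervals that include 0 in Tregs.

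Of the 4 members that belong to ISG15 conjugation (Isg15, Uba7, Herc6 and Usp18), 0 passed in either response by limma. Isg15 itself was 1116 and 1116 in control Tconvs and 885 and 1344 in CD70Tg Tconvs, on either side of the controls. In Tregs it was 835 and 846 against 701 and 892, again on either side. The log2 differences were -0.03 ± 0.18 in Tconvs and -0.09 ± 0.18 in Tregs. Uba7, the enzyme that activates ISG15 for transfer, was 2400 and 2011 against 2694 and 3146 in Tconvs, and 2795 and 3525 against 4159 and 3932 in Tregs. Its groups did not overlap, but the log2 differences of 0.41 and 0.36 missed the threshold (limma, adjusted p = 0.081 and 0.12). Usp18, which removes ISG15 and dampens the type I receptor, differed by 0.26 and 0.23, and Herc6, the main ISG15 ligase of mice, by 0.39 and -0.05.

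Of the 10 other direct effectors, Mx1 rose in Tconvs and 0 rose in Tregs. Mx1, a gene of the dynamin-like GTPase family, was 76 and 82 in control and 133 and 208 in CD70Tg Tconvs. The log2 fold change was 1.03 ± 0.30 (limma, adjusted p = 0.041), with a range of the adjusted p from 0.012 to 0.33 over the alternatives, and it did not pass without either control library or without CD70Tg library 2. In Tregs it was 248 and 447 against 345 and 435, which overlap. Rsad2 (viperin), which makes a chain-terminating nucleotide, was 299 and 333 against 300 and 381 in Tconvs and 282 and 281 against 147 and 289 in Tregs, where the 147 stands for 14 reads. Cmpk2, its neighbour on chromosome 12 and the kinase that supplies its substrate, had separate groups in both subsets (635 and 605 against 721 and 970, 384 and 443 against 533 and 664), with log2 differences of 0.43 and 0.52 that did not pass (limma, adjusted p = 0.2 and 0.099).
Ifi27l2a, the highest of the class, was 7437 and 9224 in control and 6768 and 6241 in CD70Tg Tconvs, and 9642 and 9331 against 9153 and 10869 in Tregs. Its log2 difference in Tconvs was -0.35, the lowest of the 45, and did not pass (limma, adjusted p = 0.12). Ifi44 was 127 and 193 against 283 and 348 in Tregs, a log2 difference of 0.98 just short of the threshold (limma, adjusted p = 0.052), which passed in 7 of 16 alternatives. Bst2, Isg20 (an RNA exonuclease), Rtp4, Samd9l (a restriction factor against poxviruses) and Mx2 had log2 differences between 0.02 and 0.47 in Tconvs and between -0.08 and 0.41 in Tregs, and did not pass.

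Zbp1, a sensor of Z-form nucleic acid that can trigger necroptosis, rose in both subsets. It was 4149 and 3641 in control and 5593 and 6957 in CD70Tg Tconvs, and 4018 and 3670 against 5580 and 6286 in Tregs. The log2 rise was 0.68 ± 0.13 in Tconvs (limma, adjusted p = 0.002) and 0.62 ± 0.13 in Tregs (limma, adjusted p = 0.0069). In Tconvs it passed without each of the 8 libraries, and in Tregs it did not without library 2 of either Treg group. The other nucleic acid sensors and RNA enzymes did not pass in either subset. Adar, the RNA-editing deaminase, had the highest mean value of the class, though per kilobase of exon Zbp1 was higher (1413.1 against 705.8). Adar was 6103 and 4866 against 5506 and 5903 in Tconvs and 5896 and 5946 against 5862 and 5758 in Tregs. Its log2 differences were 0.06 and -0.03.
The RNA sensor Ifih1 (MDA5) was 720 and 718 against 859 and 1284 in Tconvs, a log2 difference of 0.54 (limma, adjusted p = 0.054). Ddx58 (RIG-I) differed by 0.23 and 0.22, and the regulator of both, Dhx58 (LGP2), by 0.09 and -0.09. Eif2ak2, the kinase PKR that halts translation on double-stranded RNA, differed by 0.32 and 0.19, and the helicase Ddx60 by 0.03 and -0.28.

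All 3 genes of the PARP and DTX3L class rose in Tconvs. Parp9 and Dtx3l form a complex of an ADP-ribosyltransferase and a ubiquitin ligase, and Parp14 is a further ADP-ribosyltransferase. Parp14 was 3653 and 3847 in control and 5688 and 6706 in CD70Tg Tconvs, a log2 rise of 0.72 ± 0.11 (limma, adjusted p = 0.00047), and it passed in all 16 alternatives. In Tregs it was 6672 and 6463 against 7858 and 7449, also without overlap, with a log2 difference of 0.22 (limma, adjusted p = 0.28). Dtx3l rose by 0.56 and Parp9 by 0.48 in Tconvs, with adjusted p-values of 0.0045 and 0.019 in limma, and neither passed without control Tconv library 2. Parp9 also did not without CD70Tg Tconv library 2. In Tregs they differed by 0.27 and 0.20. Their starts lie 681 bases apart on opposite strands of chromosome 16, and 9.4% of the exonic bases of Parp9 and 8% of those of Dtx3l overlap the other gene, so that reads there may not be told apart.

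Trafd1, a feedback inhibitor of innate signalling, was the only gene of the TRIM proteins and signal modulators to pass. It was 1430 and 1166 in control and 1634 and 2291 in CD70Tg Tconvs, and 1432 and 1524 against 2184 and 2279 in Tregs. The log2 rise was 0.58 ± 0.15 (limma, adjusted p = 0.023) and 0.59 ± 0.15 (limma, adjusted p = 0.026). Without overlap in either subset, it still did not pass in Tregs without any one of the 4 Treg libraries, or in Tconvs without control library 2 or CD70Tg library 2. Trim30a had the highest mean value of the class, though per kilobase of exon (779.4) it was below Ifi35 (978.5) and Nmi (936.3). It was 2887 and 2495 against 2942 and 3305 in Tconvs and 3383 and 3560 against 3396 and 3665 in Tregs. Its log2 differences were 0.22 and 0.02. Trim25, the ubiquitin ligase that acts on RIG-I, was lower in both CD70Tg libraries of either subset (-0.24 and -0.17), and Trim21, an antibody receptor of the cytosol, differed by 0.12 and 0.07. Nmi and Ifi35, which bind each other, differed by 0.19 and 0.25 in Tconvs and 0.24 and -0.01 in Tregs. None of these passed.

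In the last class, Epsti1 rose in Tconvs and Lgals3bp in Tregs. Epsti1 was 3295 and 3581 in control and 4342 and 6160 in CD70Tg Tconvs, a log2 rise of 0.59 ± 0.14 (limma, adjusted p = 0.015) that did not pass without control library 1 or CD70Tg library 2. Lgals3bp, a secreted glycoprotein that binds galectins, was 3315 and 3223 in control and 4441 and 4791 in CD70Tg Tregs, a rise of 0.50 ± 0.12 (limma, adjusted p = 0.019) that did not pass without any one of the 4 Treg libraries. Phf11d had the highest log2 difference of the 45 in Tregs, 1.37 ± 0.43, from 25 and 36 to 84 and 87. Those values rest on 5 to 16 reads, and the adjusted p was 0.066 in limma.
Shisa5 was 44527 and 47674 against 51046 and 35940 in Tconvs, on either side of the controls, and 52148 and 52055 against 57937 and 55176 in Tregs. Pml, the scaffold of nuclear bodies, differed by 0.14 and 0.11, and Xaf1, which antagonises an inhibitor of apoptosis, by 0.51 and 0.11. Neither passed.

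**Figure D3:**
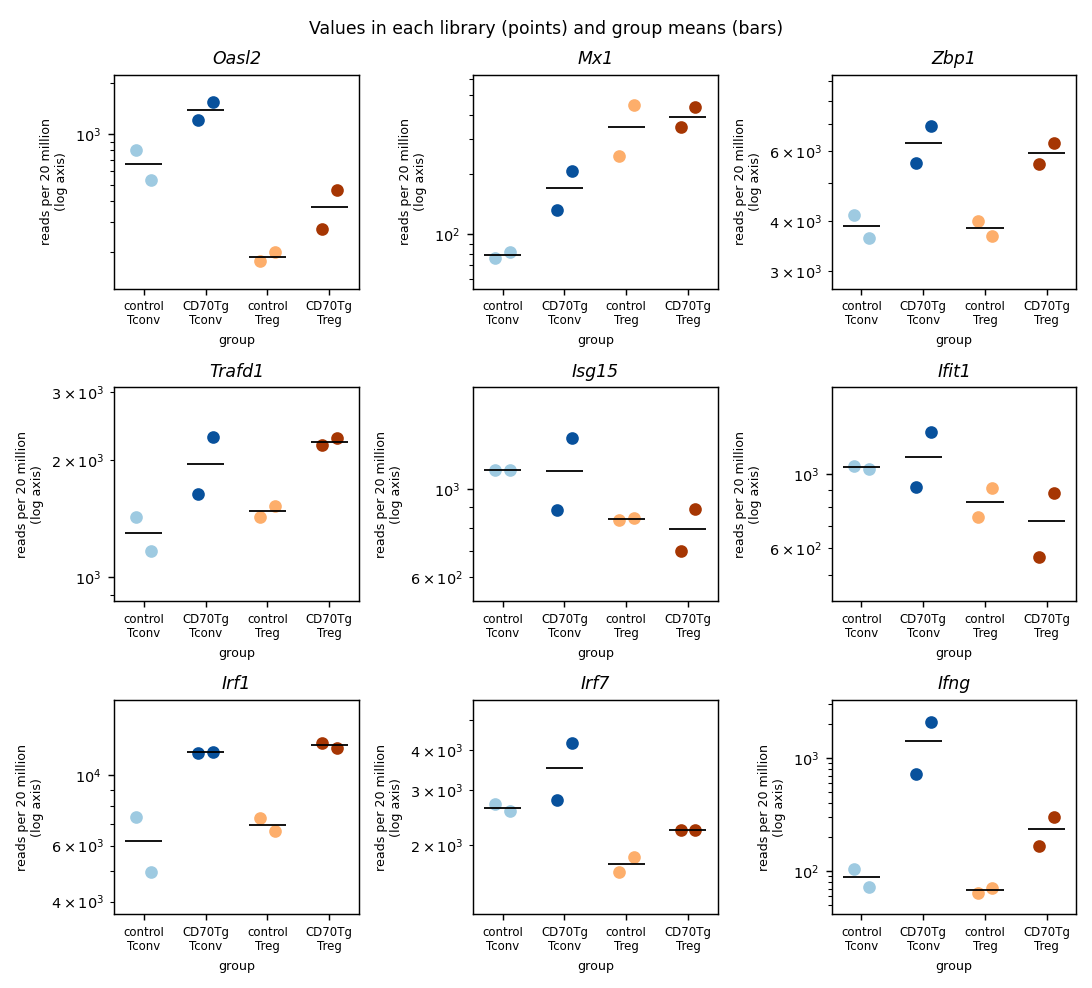
Values of 9 genes in each library, as reads per 20 M on log axes, with 2 points and a bar for the mean in each of the 4 groups. Oasl2, Zbp1 and Trafd1 have separate CD70Tg and control points in both subsets, whereas the CD70Tg points of Isg15 lie on either side of the controls.

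The subsets differed at baseline in both directions. In control Tregs against control Tconvs, 11 of 45 members (24.4%) were higher and 11 (24.4%) lower by limma. Among all genes, 27.5% were higher and 18.4% lower, so that the members' shares lay near those of the whole table. Past a log2 difference of 1, there were 5 members, and 19.2% of all genes. The median of the 45 was -0.04 and that of all genes 0.07, and the former was 0.02 without control Tconv library 1 and -0.08 without control Tconv library 2. Summed macrophage and monocyte markers were also higher in control Tregs, with Csf1r at 449 and 417 in control Tconvs and 1500 and 1205 in control Tregs, and Adgre1 at 41 and 40 against 258 and 272. Most of the difference in the sum was Csf1r, while Lyz2 (788 and 835 against 641 and 872) and Itgam (178 and 166 against 146 and 198) overlapped. The part of these markers' cells in the differences was not tested. Higher in control Tregs were Mx1, Eif2ak2, Samd9l, Mx2, Parp14, Isg20, Uba7, Ifih1, Ddx60, Trim30a and Dtx3l. Lower were Oasl2, Oasl1, Oas2, Lgals3bp, Ifit3b, Cmpk2, Oas3, Bst2, Rtp4, Ifit2 and Ddx58. The higher count was 5 without control Tconv library 2 or control Treg library 2, and 7 without control Treg library 1. The lower count was 5 without control Tconv library 1 or control Treg library 2, and 7 without control Tconv library 2 or control Treg library 1. With no minimum value the counts were 6 and 5.

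Among the higher genes, Mx1, Eif2ak2 and Samd9l had the largest log2 differences. These are RNA values, and whether functional Mx1 or Mx2 protein was made was not tested. Mx1 was 76 and 82 in control Tconvs and 248 and 447 in control Tregs, a log2 difference of 2.01 ± 0.30 (limma, adjusted p = 5.5e-05). Eif2ak2 was 527 and 538 against 1820 and 2159, a difference of 1.89 ± 0.15 (limma, adjusted p = 4.8e-08). Samd9l was 779 and 1208 against 2267 and 3451, a difference of 1.52 ± 0.20 (limma, adjusted p = 1.8e-05). These 3 passed in all 16 alternatives, with no overlap between the subsets. Mx2 was 41 and 44 against 102 and 97, a log2 difference of 1.14 ± 0.35 (limma, adjusted p = 0.013), and it did not pass without any one of the 4 control libraries. Parp14, with 3653 and 3847 against 6672 and 6463, differed by 0.81 ± 0.11 (limma, adjusted p = 3.1e-05), and Isg20, at 709 and 716 against 1277 and 1174, by 0.78 ± 0.19 (limma, adjusted p = 0.0035).

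Of the oligoadenylate synthetases, 4 of 5 were lower in control Tregs. Oasl2 differed most, by -1.78 ± 0.25 (limma, adjusted p = 2.3e-05), from 797 and 534 in Tconvs to 175 and 198 in Tregs, and Oasl1 by -0.85 (limma, adjusted p = 0.0014), from 640 and 565 to 330 and 333. Both passed in all 16 alternatives. Oas2 (-0.81) and Oas3 (-0.47) passed with adjusted p-values of 0.024 and 0.018 in limma, but Oas2 did not without any one control library, nor Oas3 without control Tconv library 1 or control Treg library 2. Oas1a stood apart with 0.30 and did not pass. The RNA sensors split as well, with a log2 difference of -0.35 for Ddx58 and of 0.51 for Ifih1, both of which passed. All 4 IFIT genes had negative log2 differences, between -0.67 and -0.35, of which Ifit2 and Ifit3b passed. Bst2 (-0.47), Lgals3bp (-0.70), Rtp4 (-0.45) and Cmpk2 (-0.58) passed on the same side. Of the 22 members that passed, Mx1, Eif2ak2, Samd9l, Parp14, Isg20, Oasl1, Oasl2 and Lgals3bp did so without each library in turn, and the other 14 did not pass without at least 1 of the control libraries. The direction of each member that passed here was the same under all alternatives, the rescaling with median-of-ratios factors among them.

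**Figure D4:**
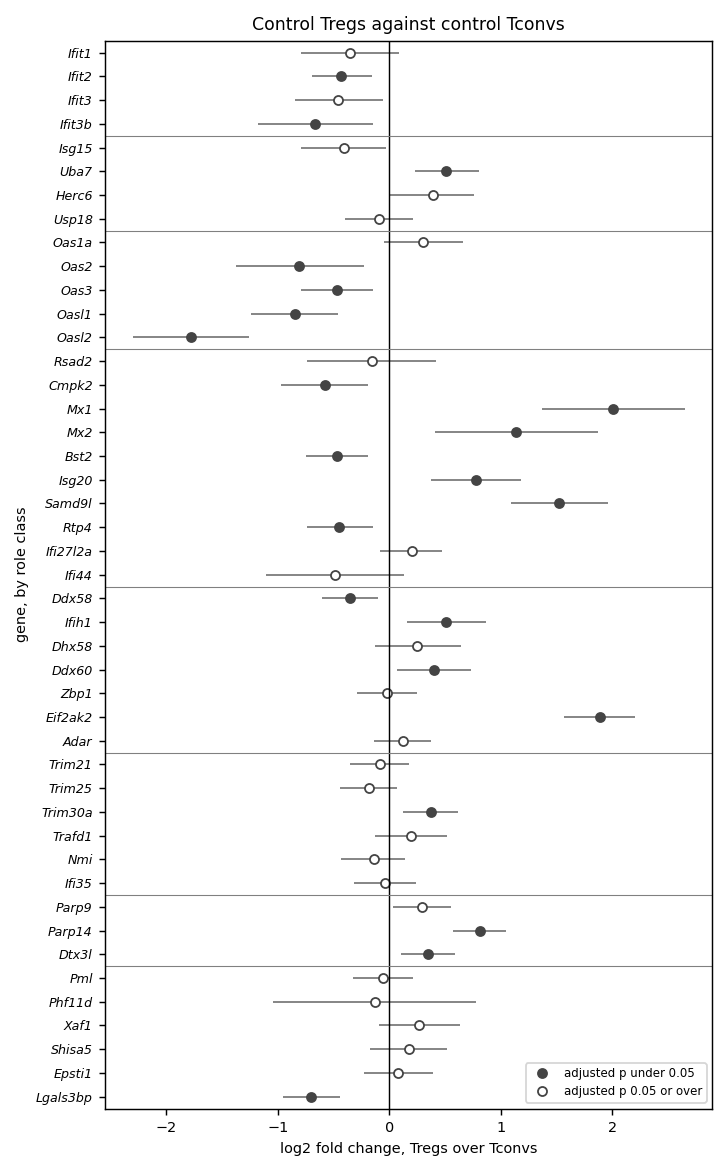
Points are log2 differences of control Tregs minus control Tconvs for each member with 95% intervals from limma, by role class, and filled points have an adjusted p under 0.05. Mx1, Eif2ak2 and Samd9l lie farthest to the right and Oasl2 farthest to the left, with 11 filled points on each side of 0.

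Under the transgene the subsets differed in a like number of members. In CD70Tg Tregs against CD70Tg Tconvs, 10 members were higher and 14 lower by limma, and 22.6% of all genes were higher and 20.1% lower. All 4 IFIT genes were lower, Ifit3b by -1.12 and Ifit3 by -0.90 on the log2 scale. Mx1 (1.19), Eif2ak2 (1.75), Samd9l (1.04), Mx2 (1.04) and Phf11d (1.58) were higher and Oasl2 (-1.93), Oas2 (-1.09) and Ifit3b lower past a log2 difference of 1, as were 17.2% of all genes. Without CD70Tg Tconv library 1, 4 members were higher and 4 passed the fold criterion, and without CD70Tg Treg library 2, 6 were higher. The lower count was 6 without CD70Tg Tconv library 2 or without CD70Tg Treg library 1.

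Some genes of the pathway above the members changed. Among 6 ligands, Ifng was 105 and 72 in control and 718 and 2111 in CD70Tg Tconvs, and 64 and 71 against 168 and 300 in Tregs. The log2 rise was 3.75 ± 0.40 (limma, adjusted p = 6.9e-06) and 1.67 ± 0.40 (limma, adjusted p = 0.016), and the Treg rise did not pass without either control Treg library or CD70Tg Treg library 2. The other 5 ligands (Ifnb1, Ifna2, Ifna4, Ifnl2 and Ifnl3) were at 0 in all 8 libraries. Of the receptors and JAK kinases, 7 of 8 were tested. Ifngr1, the ligand-binding chain of the interferon gamma receptor, was 3455 and 3275 in control and 6391 and 7528 in CD70Tg Tconvs, and 7585 and 8245 against 15913 and 18492 in Tregs, with log2 rises of 1.04 and 1.12 (limma, adjusted p = 2.1e-05 and 4.3e-05). Ifngr2, the other chain, fell by 0.59 on the log2 scale in Tconvs, and Jak2 rose there by 0.39. Ifnar1 and Ifnar2, the receptor of type I interferons, differed by 0.08 and 0.04 in Tconvs and by 0.03 and -0.19 in Tregs, and did not pass.

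Of the transcription factors, Stat2, Stat3, Irf1, Irf2 and Irf8 rose in Tconvs, and Irf1, Irf2 and Irf8 in Tregs. Irf1, a factor induced through GAS, was 7401 and 4970 in control and 11721 and 11829 in CD70Tg Tconvs, and 7318 and 6656 against 12612 and 12185 in Tregs, with log2 rises of 0.96 and 0.83 (limma, adjusted p = 0.00038 and 0.0026). Irf8 rose by 1.26 and 1.53. Irf2, which competes with Irf1, rose by 0.50 in Tconvs and by 0.38 in Tregs. Irf9 and Stat2, which act on the ISRE, differed by 0.11 and 0.56 in Tconvs, where Stat2 passed, and by -0.10 and 0.36 in Tregs, where neither did. Irf7, the amplifier of type I interferon responses, was 2699 and 2566 against 2778 and 4237 in Tconvs and 1645 and 1839 against 2236 and 2235 in Tregs, log2 differences of 0.38 and 0.36 that did not pass (limma, adjusted p = 0.17 and 0.19). Of the 6 negative regulators, Socs1 and Socs3 rose in Tconvs (0.79 and 1.12) and 0 passed in Tregs. Of 7 sensor adaptors and kinases tested, 0 changed in Tconvs, and in Tregs Tlr7, a sensor of single-stranded RNA, fell by 0.96 on the log2 scale. Several of these calls rest on single libraries. Stat2, Stat3, Jak2, Ifngr2, Socs1 and Socs3 did not pass in Tconvs without CD70Tg Tconv library 2, and Stat3, Irf2, Jak2, Ifngr2 and Socs1 did not without control Tconv library 2. Jak2 and Ifngr2 also did not without control Tconv library 1, nor Jak2 without any one of the 4 Treg libraries. In Tregs, Irf2 did not pass without any one of the Treg libraries, nor Tlr7 without control Treg library 1.

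Genes typical of interferon gamma, such as the guanylate-binding proteins, immunity-related GTPases and immunoproteasome subunits, had higher counts and medians than the antiviral members, a contrast that was not tested. Of 26 such genes, 23 (88.5%) rose in Tconvs with a median log2 fold change of 1.22, and 20 (76.9%) in Tregs with a median of 0.75. The medians of the members were 0.28 and 0.21. Of all genes tested, 6.82% rose and 1.99% fell in Tconvs, and 3.94% rose and 3.46% fell in Tregs. The 0.28 of the members in Tconvs was 0.13 without CD70Tg library 2 and 0.43 without library 1. No such values are given here for the list of 26. Of the 62 other interferon-stimulated genes, 56 were tested. In Tconvs 17 rose (30.4%) and 1 fell (1.79%), with a median of 0.30. In Tregs 7 rose (12.5%) and 2 fell (3.57%), with a median of 0.21. The list of 26 was drawn up with earlier results of these libraries known and is no independent evidence of its direction. As an example, Gbp2 was 2897 and 2537 in control and 9266 and 12535 in CD70Tg Tconvs, and 4154 and 3753 against 8485 and 9956 in Tregs, with log2 rises of 1.99 and 1.22.

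**Figure D5:**
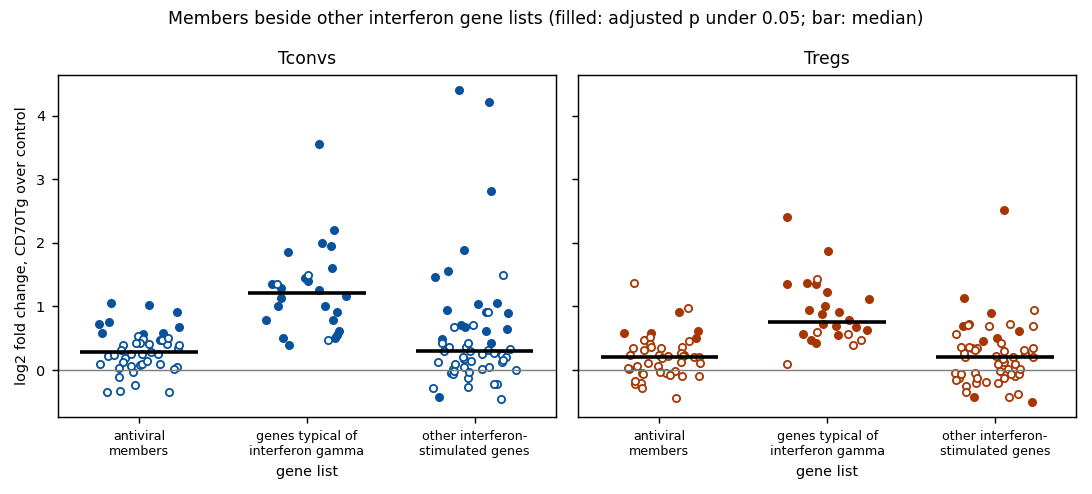
Points are log2 fold changes of CD70Tg over control for single genes of 3 lists in Tconvs (left) and Tregs (right), spread sideways for legibility, with filled points at an adjusted p under 0.05 and bars for medians. The antiviral members centre on 0.28 (0.13 without CD70Tg Tconv library 2 and 0.43 without library 1) and 0.21, and the genes typical of interferon gamma on 1.22 and 0.75.

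The promoter letters can be set beside the responses. Of the 15 members with an ISRE core in the window, 2 rose in Tconvs (Ifit3 and Ifit3b) and 1 in Tregs (Oas1a), with median log2 fold changes of 0.23 and 0.19. Of the 20 without, 4 rose in Tconvs (Oasl2, Trafd1, Dtx3l and Epsti1) and 3 in Tregs (Oasl2, Trafd1 and Lgals3bp), with medians of 0.40 and 0.25. Of the 10 that the promoter table lacks, 4 rose in Tconvs and 1 in Tregs. In the sequences printed above, Ifit1 and Ifit3 each hold a pair of cores, and their log2 fold changes in Tconvs were 0.08 and 0.76.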

How the data were processed

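RNA from sorted Tregs and Tconvs was sequenced as paired-end NuGEN Ovation SoLo libraries. Per the labels and the study's methods, the authors trimmed reads with Trimmomatic 0.36, mapped them to mm10 with STAR 2.5.3 and obtained counts with HTSeq 0.9.1, and whether strand was used is not given in the sources used here. The deposited values are scores, the authors' reads per gene scaled to 20 M per library and rounded up, and not raw counts. Groups were taken from the column names, which call the controls KO, where the sample descriptions call them WT and the methods CD27+/-. Libraries are numbered in table order.

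The 4131 rows that carry clone names were dropped because the step of their low values is that of another library. The 12816 genes that reached 60 in 2 or more libraries were tested on log2(value + 5) by limma 3.58.1 (R 4.3.3), with an intensity trend, 1 coefficient per group, no replicate block, and adjustment by Benjamini and Hochberg's method over all genes within each of 5 contrasts. Fold changes of low genes are understated on this scale. A gene rose or fell at an adjusted p under 0.05. The model was tested on simulated data, with the same spread set for every gene and with changes larger than most reported here. That test does not cover the smaller changes. Numbers of reads were recovered from the steps of the low values, and those of the 2 deepest libraries, whose steps are near or under 1, are less certain. Exonic lengths and positions are from GENCODE M21 (GRCm38), which holds 48348 of 48505 identifiers, and promoter windows from RefSeq (GRCm38.p6).

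Members, lists and classes were chosen with earlier results of these data known. All 45 members are named by role class. Values of each library were planned for members past both thresholds and for the member of each class with the highest mean, not divided by exon length. Those of the other members and of the pathway genes were chosen after the values were seen. So were the printed promoters, because no member of the promoter table that holds an ISRE passed both thresholds in a response. The 16 alternatives run comprise 8 that each leave out a library. One gene of the pathway lists is not reported here.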

Additional observations from a re-analysis of the deposited data

How the results depend on the processing

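No paired analysis was possible because the columns of the table carry no replicate numbers of the sample titles, so the planned replicate block was not run. Each of the 45 members was recomputed in up to 16 alternatives over 5 comparisons, 3550 values in all. Of these, 3297 kept their direction and their side of the threshold or changed sign only under it, 182 no longer passed, 71 newly passed, and 0 turned direction where either fit passed. Signs changed under the threshold in 127.

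The number of members higher in CD70Tg Tregs (5 as reported) was 0 with no minimum value, 1 with limma-voom on numbers of reads, 10 with median-of-ratios factors and 12 with the 4 Treg libraries alone, and the number past the fold criterion (0) was 1 with a pseudocount of 20 and 2 with median-of-ratios factors. The number higher in CD70Tg Tconvs (10) was 1 with no minimum, 17 with limma-voom and 8 with the 4 Tconv libraries alone, and the number past the fold criterion (2) was 1 with a pseudocount of 20 or median-of-ratios factors and 0 with no minimum. With no minimum, 6 members were higher and 5 lower in control Tregs against control Tconvs, and 6 higher and 8 lower in CD70Tg Tregs against CD70Tg Tconvs, where limma-voom gave 9 lower. With no minimum, 26467 genes were tested in place of 12816. The cause of the other shifts was not tested.

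Leaving out 1 library at a time gave 0 to 9 members higher, 0 to 0 lower and 0 to 1 past the fold criterion in Tregs, and 3 to 21, 0 to 1 and 0 to 4 in Tconvs. For the difference of responses the ranges were 0 to 0, 0 to 1 and 0 to 0. Between control subsets they were 5 to 13, 5 to 13 and 4 to 5, and between CD70Tg subsets 4 to 11, 6 to 15 and 4 to 8. The median of the members between CD70Tg subsets (-0.09) became -0.26 without CD70Tg Tconv library 1 and 0.08 without library 2. Counting only bases before the start, 28.6% of members held the ISRE core, and 3.46% of all genes in the promoter table. For the GAS the shares were 14.3% (5 of 35 members) and 8.13%.

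The shallowest library (CD70Tg Tregs, library 1) gives 1 read a value of 10.45, and Phf11d, Mx2, Rsad2 and Oas2 fall to 5 to 14 reads in their lowest library.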

Other observations

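Among the other interferon-stimulated genes, the interferon-induced transmembrane proteins, which hinder fusion of enveloped viruses with the cell, rose in Tconvs, as did Gm4951, an immunity-related GTPase. Ifitm1 rose by 4.40 on the log2 scale (limma, adjusted p = 0.00042), Ifitm2 by 2.81 (limma, adjusted p = 0.00013) and Ifitm3 by 1.55 (limma, adjusted p = 0.0041, not passed without CD70Tg Tconv library 2), and Gm4951 by 4.21 (limma, adjusted p = 4.4e-08). The 2 CD70Tg Tconv libraries lay far apart, with Ifitm1 at 10 and 7 in control and 168 and 462 in CD70Tg Tconvs. Ifitm2 was 37 and 40 against 182 and 494. Ube2l6, the enzyme that conjugates ISG15, rose by 1.89 in Tconvs (limma, adjusted p = 6.4e-05), where Isg15 did not pass. In Tregs, Gm4951 rose by 2.51 (limma, adjusted p = 5.7e-05). Slfn5 was lower in both subsets, by -0.42 in Tconvs and -0.50 in Tregs, and did not pass in Tregs without any one of the 4 Treg libraries, nor in Tconvs without library 2 of either Tconv group or any one Treg library. These genes were picked after their values were seen.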
